A study of Homo sapiens with 6 samples.

Results

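MHC class I genes and the genes that load peptides onto class I molecules were followed in differentiated SH-SY5Y cells, a human neuroblastoma line. The set holds 9 of the 58395 genes of the read-count table, chosen by gene name: the heavy chains HLA-B, HLA-C, HLA-E and HLA-F, the light chain B2M, the peptide transporter subunits TAP1 and TAP2, the loading factor TAPBP (tapasin) and the peptide-trimming enzyme ERAP1. Each name stood for 1 row of the table, and all 9 passed the filter on low counts that left 16778 genes for testing. RNA-seq was made from 6 libraries, 3 labelled SH_ctrl from cells transfected with empty pcDNA3.1 and 3 labelled SH_tau from cells transfected with the same plasmid carrying a wild-type Tau cDNA (isoform D). By the study's methods both groups were then differentiated, first for 5 days with retinoic acid (10 µM) and then for 15 days with BDNF (50 ng/mL), a neurotrophin. Transfection used a lipid reagent, no selection of transfected cells is described, and the labels do not say whether replicates came from separate cultures. The p-values therefore measure the spread between these libraries, which may be technical.

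Class I molecules show the cell's own peptides to CD8+ T cells and NK cells. Peptides cut by the proteasome are pumped into the endoplasmic reticulum by the TAP1 and TAP2 transporter, trimmed by ERAP1, and loaded with the help of tapasin, calreticulin and the disulfide isomerase PDIA3 onto a heavy chain paired with β2-microglobulin, the B2M product. Neurons and neuroblastoma cells are known for low class I expression, and interferons raise most genes of the pathway through factors such as IRF1 and NLRC5.

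Library totals ran from 27945481 to 31706415 reads, of which 30.5 to 57.8% came from the mitochondrial genome. MAPT, which encodes Tau, did not differ past the thresholds between the labels and was not higher under the Tau label (-0.33 on the log2 scale, SE 0.18, adjusted p = 0.239), so every direction below refers to the labels. Levels are given as TMM-scaled read counts relative to library size (CPM), unless another scale is named. Of 12 noradrenergic neuroblastoma markers 11 were tested, and their summed level was 3869 to 4893 CPM in SH_ctrl and 3235 to 3613 CPM in SH_tau. Of 12 leukocyte markers 7 had no read in any library, and the summed level was 0.802 to 1.67 CPM in SH_ctrl and 1.58 to 2.14 CPM in SH_tau. Endothelial markers, 2 of 5 with no read in any library, summed to 0.278 to 0.716 and 0.925 to 1.21 CPM. The 7 fibroblast and mesenchymal markers summed to 33.7 to 36.5 CPM in SH_ctrl and 45.9 to 56.4 CPM in SH_tau. The noradrenergic, endothelial and fibroblast sums were separated between the labels, and the leukocyte sums overlapped. The relation between a gene's GC content and its level also moved with the labels (Spearman -0.52, -0.37 and 0.12 in SH_ctrl and 0.43, 0.26 and 0.32 in SH_tau, across genes, against the mean library). The part of the markers in the results below was not tested. In bulk RNA, fewer cells with a transcript and less of it per cell cannot be told apart.

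Most heavy chains, the light chain and the transporter rose, and the trimming enzyme fell. Calls were made with edgeR's quasi-likelihood test and needed an adjusted p under 0.1 together with a log2 fold change beyond 0.5 in size. HLA-B, HLA-C, HLA-E, B2M, TAP1, TAP2 and TAPBP were called higher in the libraries labelled Tau, ERAP1 was called lower, and HLA-F did not pass. These are 7 higher calls and 1 lower call among 9 members, in a table where 9.37% of tested genes were called higher and 8.42% lower. HLA-B, 1 of the 7, may have passed the filter on low counts only through SH_tau, where it is high. The median log2 fold change of the members was 0.73, against -0.03 over all 16778 tested genes. Every SH_tau library lay above every SH_ctrl library for 6 members and below for 1, where 16.1% and 16.8% of all tested genes were separated in those directions. The calls depended on single libraries. Without SH_ctrl replicate 1 edgeR called 0 members in either direction and 1.05% of all genes higher and 0.417% lower, although 7 members and 3506 genes had an unadjusted p under 0.05, and DESeq2 called 2 members higher and limma-voom 1. Without SH_ctrl replicate 2 there were 4 higher calls and 0 lower (5.54% and 4.73% of all genes), and without SH_tau replicate 1 there were 4 and 1 (7.25% and 4.28%). Without SH_tau replicate 2 there were 2 and 0 (3.81% and 2.48%), and without SH_tau replicate 3 there were 3 and 0 (4.57% and 2.47%). Scaled to total counts, which include the mitochondrial reads and lowered the median of all genes to -0.36, 1 member (HLA-B) was called higher and ERAP1 lower, where 3.33% and 17.2% of all genes were called in those directions.

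**Figure D1:**
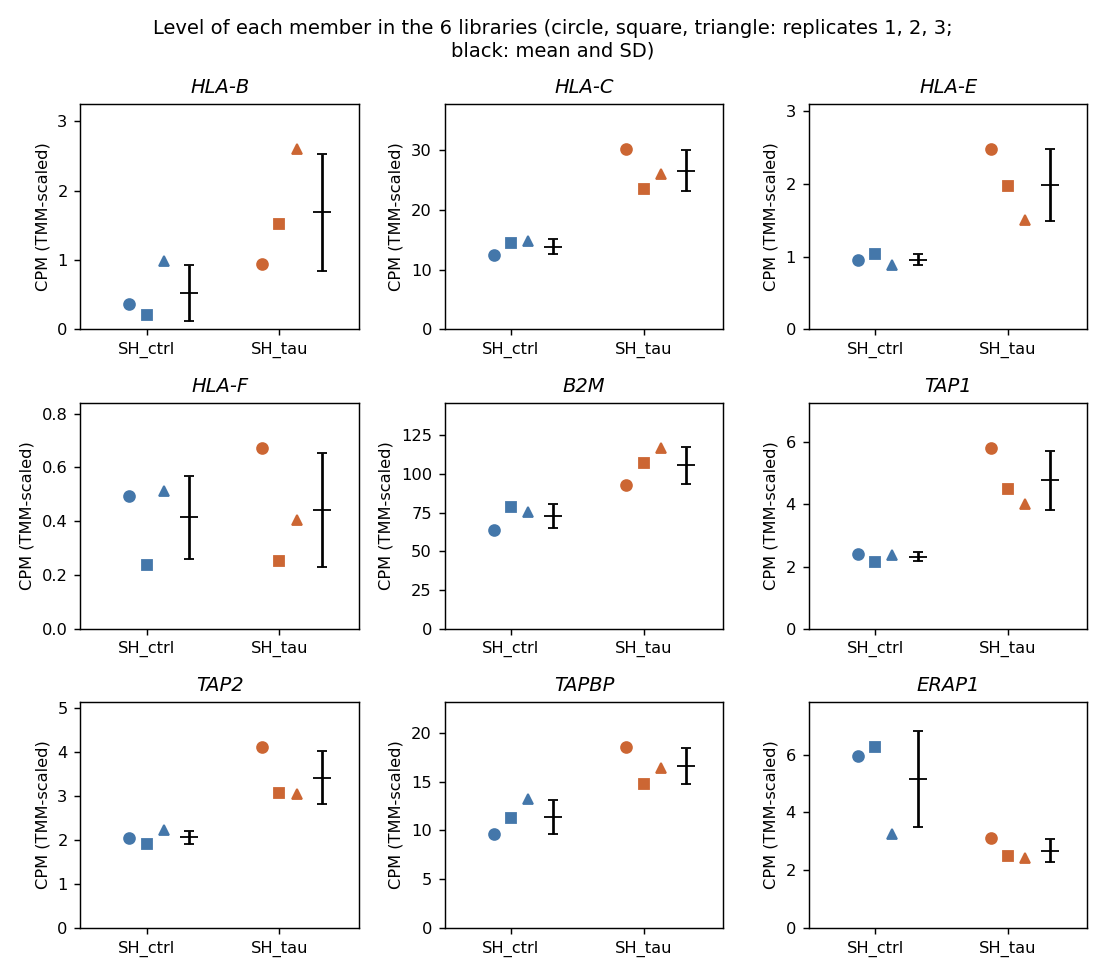
Level of each of the 9 genes in the 6 libraries, in TMM-scaled CPM on a separate linear axis per gene; circle, square and triangle are replicates 1, 2 and 3, and black marks give the mean and SD of 3 libraries. HLA-C, HLA-E, B2M, TAP1, TAP2 and TAPBP are separated with SH_tau above, ERAP1 is separated with SH_tau below, and HLA-B and HLA-F overlap.

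Upstream sequences are shown first for the heavy chains, since they carry the elements through which class I genes are classically regulated. Each run holds 250 bases before the annotated start (RefSeq, GRCh38.p14, 5′ to 3′ on the gene's strand). Capitals mark matches, on either strand, to the interferon-stimulated response element (ISRE, here GAAA, any 2 bases, then GAAA), to the Y box CCAAT, and to TGACG, the core of the cyclic AMP response element. HLA-B lies on chr6:31357180-31357429, HLA-C on chr6:31272093-31272342 (both minus strand) and HLA-F on chr6:29723184-29723433 (plus strand).
HLA-B: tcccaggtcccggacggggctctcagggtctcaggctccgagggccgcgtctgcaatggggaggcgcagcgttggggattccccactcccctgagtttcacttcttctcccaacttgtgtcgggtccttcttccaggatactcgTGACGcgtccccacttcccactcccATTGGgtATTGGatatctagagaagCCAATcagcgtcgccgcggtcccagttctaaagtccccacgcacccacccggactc
HLA-C: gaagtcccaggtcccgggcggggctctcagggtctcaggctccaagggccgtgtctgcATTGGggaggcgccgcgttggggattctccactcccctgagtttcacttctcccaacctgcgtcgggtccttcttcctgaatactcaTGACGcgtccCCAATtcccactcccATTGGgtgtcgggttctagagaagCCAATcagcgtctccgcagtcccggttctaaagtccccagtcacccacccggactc
HLA-F: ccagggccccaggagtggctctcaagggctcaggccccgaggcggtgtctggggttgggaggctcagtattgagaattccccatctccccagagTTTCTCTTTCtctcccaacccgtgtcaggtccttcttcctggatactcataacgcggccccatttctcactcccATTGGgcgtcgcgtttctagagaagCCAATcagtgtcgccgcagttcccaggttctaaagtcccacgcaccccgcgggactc
The windows of HLA-B and HLA-C both held TGACG followed by CCAAT in either orientation, and neither held a match to the ISRE letters used here. The window of HLA-F held an ISRE match on the minus strand at -156 to -147 and CCAAT matches, and no TGACG. Over all 35116 RefSeq windows of this length, the ISRE was found in 3.02%, CCAAT in 32% and TGACG in 21.2%. A match to letters is no evidence of binding. Nor does a missing match show that an element is absent, since variants that differ from these letters were not searched for. HLA-E had no window to search.

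HLA-C, a classical heavy chain that presents peptides and is also read by NK cell receptors, was the best measured of the 4 heavy chains, with 402 to 898 reads per library. Its level was 12.4, 14.4 and 14.7 CPM in SH_ctrl replicates 1 to 3 and 30.2, 23.4 and 26.0 CPM in SH_tau. All SH_tau libraries lay above all SH_ctrl libraries. Means were 13.8 ± 1.22 and 26.5 ± 3.41 CPM (SD, n = 3), a log2 fold change of 0.94 (SE 0.17, 95% confidence interval 0.56 to 1.32, adjusted p = 0.0126). The gene (ENSG00000204525) lies on the minus strand of chr6:31268749-31272130 in GRCh38. HLA-C was called in 16 of 21 alternative settings and was positive in all 21, from 0.58 with the GC trend removed to 1.10 with the mitochondrial share as a covariate. Without SH_ctrl replicate 1 its adjusted p was 0.104 at a log2 fold change of 0.86.

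HLA-B, the other classical heavy chain of the set, was scarce. It had 12, 9 and 29 reads in SH_ctrl and 28, 36 and 71 reads in SH_tau, or 0.371, 0.212 and 0.988 CPM against 0.941, 1.51 and 2.61 CPM. SH_ctrl replicate 3 lay above SH_tau replicate 1, so the groups overlapped. With 9 reads in SH_ctrl replicate 2, HLA-B may have passed the filter on low counts only through SH_tau. The log2 fold change was 1.73 (SE 0.53, 95% confidence interval 0.59 to 2.87, adjusted p = 0.0577) between means of 0.524 ± 0.410 and 1.69 ± 0.846 CPM (SD, n = 3). This was the highest estimate among the members and also the widest interval. It fell to 0.68 (adjusted p = 0.501) with the mitochondrial share as a covariate, and the call was also lost without SH_ctrl replicate 1 (1.55, adjusted p = 0.215), SH_ctrl replicate 2 (1.31, 0.118), SH_tau replicate 2 (1.79, 0.103) or SH_tau replicate 3 (1.28, 0.215). The gene (ENSG00000234745) lies on the minus strand of chr6:31353872-31367067.

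HLA-E, a nonclassical heavy chain that presents leader peptides of other class I chains to the NK receptor CD94/NKG2A, was also scarce at 26 to 74 reads per library. Its level was 0.959, 1.04 and 0.886 CPM in SH_ctrl and 2.49, 1.98 and 1.505 CPM in SH_tau. The SH_ctrl libraries lay close together and all SH_tau libraries lay above them. The log2 fold change was 1.04 (SE 0.29, 95% confidence interval 0.40 to 1.69, adjusted p = 0.0463) between means of 0.961 ± 0.0763 and 1.99 ± 0.491 CPM (SD, n = 3). The call was lost without SH_ctrl replicate 1 (adjusted p = 0.162), SH_tau replicate 1 (0.124) or SH_tau replicate 2 (0.132). HLA-E (ENSG00000204592) lies on the plus strand of chr6:30489509-30494194.

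HLA-F, a nonclassical heavy chain known to reach the surface partly without peptide, gave 0.495, 0.236 and 0.511 CPM in SH_ctrl and 0.672, 0.252 and 0.404 CPM in SH_tau. The groups overlapped in full, at 6 to 20 reads per library. The log2 fold change was 0.15 (SE 0.46, 95% confidence interval -0.86 to 1.16, adjusted p = 0.852), an interval that also holds the estimate for HLA-C. Its estimate was positive in 13 of 20 alternatives and negative in the other 7. HLA-F (ENSG00000204642) lies on the plus strand of chr6:29722775-29738528.

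Heavy chain genes are near-identical in places and 1 alignment was kept per read, so reads can be split among them, and a change of a single chain is less certain than that of their sum. Of the 51-base words of the longest annotated transcript, 0.972% in HLA-B, 6.07% in HLA-C, 4.64% in HLA-E and 1.54% in HLA-F also occurred in another class I gene. The alleles of this cell line were not compared with the reference. Summed over the 4 genes, the level was 14.3, 15.9 and 17.1 CPM in SH_ctrl and 34.3, 27.2 and 30.5 CPM in SH_tau. The sum rose by a log2 of 0.96 (SE 0.17, 95% confidence interval 0.59 to 1.33, adjusted p = 0.0103), and HLA-C made up most of it. The sum covers these 4 members only, and whether reads moved between them and other class I genes was not tested. The call on the sum held without each library in turn (0.89 to 1.03, adjusted p 0.00502 to 0.0950).

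B2M, the invariant light chain that every class I molecule needs, was the most abundant member. Its window on the plus strand of chr15:44711267-44711516 is shown because it held all 3 of the elements marked above.
B2M: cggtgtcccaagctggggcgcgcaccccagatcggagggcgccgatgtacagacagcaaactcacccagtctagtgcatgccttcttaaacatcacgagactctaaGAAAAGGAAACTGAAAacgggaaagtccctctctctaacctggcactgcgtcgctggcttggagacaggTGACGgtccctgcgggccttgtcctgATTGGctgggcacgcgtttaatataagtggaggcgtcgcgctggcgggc
The ISRE matched at -144 to -135 and again at -138 to -129, an overlapping pair. The level was 64.1, 78.8 and 75.5 CPM in SH_ctrl and 92.7, 107 and 117 CPM in SH_tau, with no overlap. Means were 72.8 ± 7.72 and 105.6 ± 12.1 CPM (SD, n = 3), a log2 fold change of 0.54 (SE 0.17, 95% confidence interval 0.16 to 0.91, adjusted p = 0.0710). B2M lay close to the fold threshold, and its size moved with the processing: it was 0.18 (adjusted p = 0.618) scaled to total counts and 0.82 (adjusted p = 0.0307) with the GC trend removed. At a GC content of 38.9% it was the most AT-rich member. The call was lost without SH_ctrl replicate 1 (0.45, adjusted p = 0.242), SH_tau replicate 2 (0.51, 0.220) or SH_tau replicate 3 (0.48, 0.239). B2M (ENSG00000166710) spans chr15:44711358-44718851.

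TAP1 and TAP2, the paired subunits of the peptide pump, and TAPBP, which bridges the pump to the waiting heavy chain, lie within the MHC on chromosome 6 and were called higher together. Windows of TAP1 (chr6:32853705-32853954) and TAPBP (chr6:33314079-33314328), both on the minus strand, are shown for their paired, overlapping ISRE matches.
TAP1: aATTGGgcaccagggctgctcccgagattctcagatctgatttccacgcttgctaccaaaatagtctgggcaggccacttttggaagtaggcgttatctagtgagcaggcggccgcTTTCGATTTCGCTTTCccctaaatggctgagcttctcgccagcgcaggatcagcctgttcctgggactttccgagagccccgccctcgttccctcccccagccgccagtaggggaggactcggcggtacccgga
TAPBP: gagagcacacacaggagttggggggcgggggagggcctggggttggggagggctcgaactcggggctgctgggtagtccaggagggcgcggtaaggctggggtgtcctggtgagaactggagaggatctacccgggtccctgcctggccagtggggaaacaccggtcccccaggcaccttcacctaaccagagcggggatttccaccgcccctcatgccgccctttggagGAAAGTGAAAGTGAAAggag
In TAP1 the matches lay at -134 to -125 and -128 to -119 on the opposite strand, and in TAPBP at -20 to -11 and -14 to -5. TAP2 held a single match at -58 to -49. Together, 5 of the 8 members with a window had one (HLA-F, B2M, TAP1, TAP2 and TAPBP), as against 3.02% of all windows, and 1 of these 5, HLA-F, was not called. CCAAT was found in 6 of the 8 members (32% of all windows) and TGACG in 4 (21.2%). A kB motif (GGG, any 5 bases, then CC) was found in 7 (54.4%). TTCNNNGAA, the motif of STAT factors, was found in 1 member, TAP1 (6.57%). That match lay in another TAP1 window, not shown here (chr6:32852762-32853011). Members with more than 1 window (TAP1 and ERAP1) counted if any window matched, while the percentages are shares of single windows.

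TAP1 gave 2.41, 2.15 and 2.39 CPM in SH_ctrl and 5.81, 4.50 and 4.0 CPM in SH_tau. Its SH_ctrl libraries were tightly grouped, and the lowest SH_tau library was well above them. Means of 2.32 ± 0.146 and 4.77 ± 0.936 CPM (SD, n = 3) gave a log2 fold change of 1.05 (SE 0.24, 95% confidence interval 0.52 to 1.57, adjusted p = 0.0244), which was called in 16 of 21 alternatives. Without SH_ctrl replicate 1 the change was 1.07 (adjusted p = 0.121). TAP1 (ENSG00000168394, minus strand of chr6:32845209-32853816) overlaps PSMB9 on the other strand over all 8608 bases, and the strand setting of the count is not given in the sources used here. PSMB9 had 77 reads over the 6 libraries, against 628 for TAP1.

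TAP2 gave 2.04, 1.91 and 2.21 CPM in SH_ctrl and 4.10, 3.07 and 3.05 CPM in SH_tau, with SH_tau replicate 1 standing above the rest as it did for TAP1, HLA-C and HLA-E. The log2 fold change was 0.73 (SE 0.25, 95% confidence interval 0.19 to 1.27, adjusted p = 0.0787), between means of 2.06 ± 0.152 and 3.40 ± 0.601 CPM (SD, n = 3). Leaving out any library other than SH_ctrl replicate 3 ended the call (0.60 to 0.82, adjusted p 0.150 to 0.211). TAP2 (ENSG00000204267) lies on the minus strand of chr6:32821833-32838739.

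TAPBP gave 9.65, 11.3 and 13.2 CPM in SH_ctrl and 18.5, 14.8 and 16.4 CPM in SH_tau. The groups did not overlap, although SH_ctrl replicate 3 and SH_tau replicate 2 were near each other. The log2 fold change was 0.55 (SE 0.19, 95% confidence interval 0.14 to 0.95, adjusted p = 0.0832), between means of 11.4 ± 1.77 and 16.6 ± 1.86 CPM (SD, n = 3). Among the 7 members called higher it was called in the fewest settings, 7 of 21, and the call was lost with the GC trend removed (0.34, adjusted p = 0.211) and without any library other than SH_ctrl replicate 3 (0.44 to 0.61, adjusted p 0.156 to 0.265). TAPBP (ENSG00000231925) lies on the minus strand of chr6:33299694-33314284.

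ERAP1, the aminopeptidase that trims peptides in the endoplasmic reticulum to the length class I molecules hold, was the member that fell. Its level was 5.97, 6.25 and 3.24 CPM in SH_ctrl and 3.12, 2.48 and 2.42 CPM in SH_tau. The groups did not overlap, but SH_ctrl replicate 3 stood only just above SH_tau replicate 1. Means were 5.15 ± 1.67 and 2.68 ± 0.390 CPM (SD, n = 3), a log2 fold change of -0.95 (SE 0.28, 95% confidence interval -1.56 to -0.33, adjusted p = 0.0544). It was negative in all 21 alternatives and called in 13. It was -0.66 (adjusted p = 0.145) with the GC trend removed and -0.59 (adjusted p = 0.295) with the mitochondrial share as a covariate. The call was lost without SH_ctrl replicate 1 (-0.84, adjusted p = 0.200), SH_ctrl replicate 2 (-0.79, 0.122), SH_tau replicate 2 (-0.91, 0.152) or SH_tau replicate 3 (-0.86, 0.175). ERAP1 (ENSG00000164307, minus strand of chr5:96760810-96808100) is 1 of the 2 members outside chromosome 6, and 18786 of its bases overlap CAST, which encodes calpastatin on the other strand. CAST had 11024 reads against 771 for ERAP1 and did not pass (log2 fold change 0.31, adjusted p = 0.288).

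**Figure D2:**
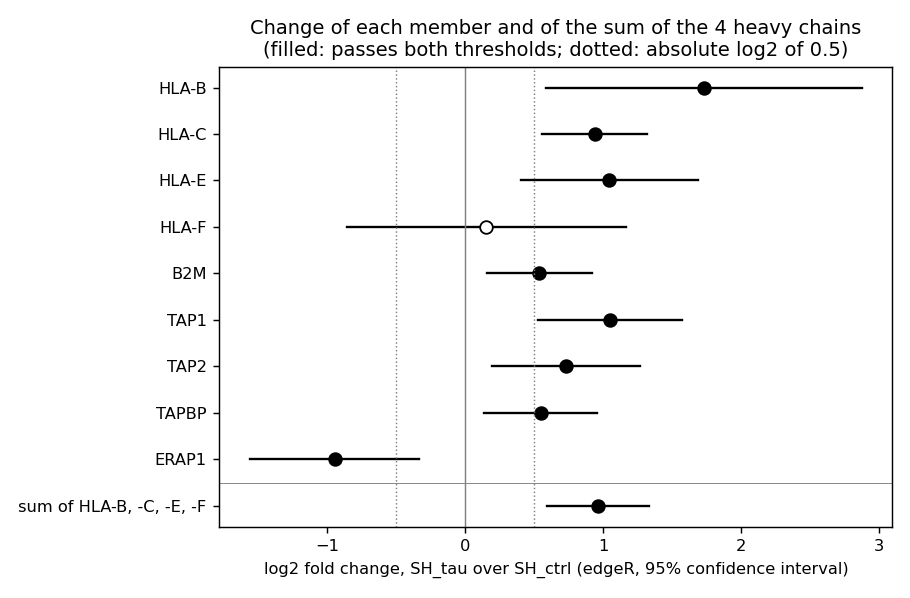
Log2 fold change of SH_tau over SH_ctrl with its 95% confidence interval (edgeR) for the 9 genes and the sum of the 4 heavy chains; filled points pass both thresholds and dotted lines mark an absolute log2 of 0.5. The interval of HLA-F covers 0, that of ERAP1 lies below 0, and those of the other 7 members lie above 0.

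Levels of different genes can be compared only per length, for which the deposited RPKM values were used. In SH_ctrl the order was B2M (13.6 ± 3.34 RPKM, SD, n = 3), HLA-C (6.28 ± 1.32), TAPBP (2.55 ± 0.537), ERAP1 (0.747 ± 0.315), TAP1 (0.542 ± 0.0481), HLA-E (0.368 ± 0.0856), TAP2 (0.362 ± 0.0371), HLA-B (0.185 ± 0.133) and HLA-F (0.104 ± 0.0271). ERAP1 and TAP1, HLA-E and TAP2, and HLA-B and HLA-F were neighbours within their spread. In SH_tau ERAP1 (0.307 ± 0.0977 RPKM) came after TAP1 (0.907 ± 0.330), HLA-E (0.611 ± 0.244), TAP2 (0.487 ± 0.171) and HLA-B (0.481 ± 0.221), and HLA-F was again last at 0.0964 ± 0.0618. B2M thus stood above every heavy chain of the set per length. RPKM is scaled to library totals with their mitochondrial reads, and on this scale HLA-C overlapped between groups (5.06 to 7.67 against 7.16 to 12.8 RPKM). The lengths implied by the deposited RPKM were 6089 bases for B2M, 4342 for HLA-F and 3051 for HLA-B. Their longest annotated transcripts hold 2329, 1544 and 3547 bases, so the order of close members may change with the lengths used.

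**Figure D3:**
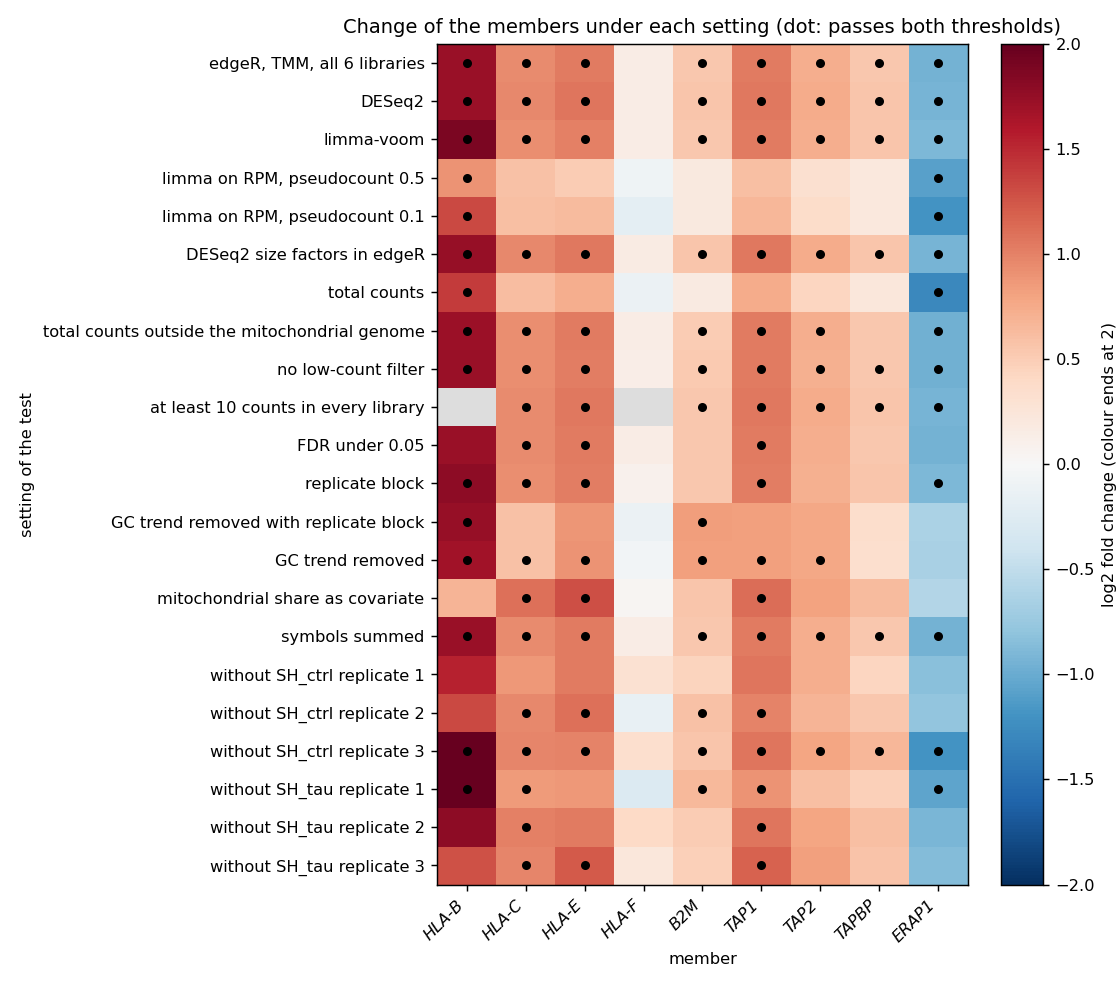
Log2 fold change of each of the 9 genes (colour) in the test as described and under each alternative setting, with a dot where both thresholds are passed. HLA-C and TAP1 carry dots in 16 of 21 alternatives and TAPBP in 7, HLA-F carries none, and the row without SH_ctrl replicate 1 has no dot.

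The rest of the pathway did not move as one block. Of 9 lists of class I pathway and interferon genes with 115 genes, 78 were tested, of which 17 were called higher and 10 lower, beside 9.37% and 8.42% of all tested genes. The chaperones and enzymes that work beside the members in the endoplasmic reticulum were called lower in 5 of 9 tested cases (median log2 fold change -0.98) and higher in 0, with 0 higher at an unadjusted p under 0.05 in edgeR and 0 in DESeq2 and limma-voom. HSPA5, the reticulum's HSP70 chaperone, fell from 454 ± 206 to 142 ± 13.6 CPM (SD, n = 3, log2 fold change -1.68, adjusted p = 0.00892). CANX, calnexin, which holds new heavy chains, fell from 471 ± 122 to 218 ± 19.0 CPM (log2 fold change -1.11, adjusted p = 0.0155). CALR, calreticulin of the loading complex, named after its values were seen, fell by 1.304 on the log2 scale (adjusted p = 0.0201), but was at -0.57 (adjusted p = 0.135) and not called with the mitochondrial share as a covariate. HSPA5 was the list member still called without SH_ctrl replicate 1 (-1.81, adjusted p = 0.0669), and scaled to total counts 8 were called lower.

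Peptides are cut by 2 forms of the proteasome. PSMB8 and PSMB9, catalytic subunits that replace standard ones in the immunoproteasome, were the 2 of 5 tested genes called higher in the list of immunoproteasome and PA28 genes (median 0.12). PSMB8 gave 4.30, 4.27 and 4.94 CPM in SH_ctrl and 10.05, 7.48 and 7.12 CPM in SH_tau (log2 fold change 0.87, adjusted p = 0.0299). PSMB9, which overlaps TAP1, gave 0.278, 0.118 and 0.273 CPM against 0.739, 0.799 and 0.514 CPM (log2 fold change 1.64, adjusted p = 0.0373). With 77 reads over the 6 libraries, PSMB9 may have passed the filter on low counts only through the group where it is high. PSMB10, the remaining catalytic subunit of the immunoproteasome, named after its values were seen, had a log2 fold change of -0.20 (adjusted p = 0.775) with overlapping groups. Neither was called without SH_ctrl replicate 1 (adjusted p = 0.141 and 0.127), 1 list member was called without SH_ctrl replicate 2 or SH_tau replicate 2, and PSMB9 was not called with the mitochondrial share as a covariate (1.22, adjusted p = 0.218). Of 3 standard catalytic subunits (PSMB5, PSMB6 and PSMB7) and the activators PSME3 and PSME4, listed together, edgeR called 0 of 5, with 0 at an unadjusted p under 0.05 and 0 by DESeq2 or limma-voom (median -0.31). PSMB7 had a log2 fold change of -0.40 (adjusted p = 0.249) and PSMB5 of -0.46 (adjusted p = 0.255).

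Among 16 transcription factors of class I genes 2 were called higher and 3 lower (median 0.01), beside 9.37% and 8.42% of all tested genes, and no test set these counts apart from those shares. NLRC5, the class I transactivator, gave 0.835, 0.614 and 1.19 CPM in SH_ctrl and 1.44, 2.52 and 1.61 CPM in SH_tau (log2 fold change 1.09, adjusted p = 0.0677). RFX5, a subunit of the factor that binds the X box of class I promoters, rose by 0.55 (adjusted p = 0.0546), while its partner RFXAP fell by 0.70 on the log2 scale (adjusted p = 0.0686). CREB1, which binds cyclic AMP response elements, fell by 0.73 (adjusted p = 0.0459), but with the GC trend removed it was at -0.32 (adjusted p = 0.223). With the mitochondrial share as a covariate NLRC5 was at 0.46 (adjusted p = 0.501), CREB1 at -0.55 (0.219), RFX5 at 0.58 (0.116) and RFXAP at -0.55 (0.256), none of them called, and with the GC trend removed NLRC5 (0.87, 0.145) and RFXAP (-0.58, 0.116) were not called either. All 5 calls were lost without SH_ctrl replicate 1, SH_ctrl replicate 2, SH_tau replicate 2 or SH_tau replicate 3, and 1 factor was called without SH_tau replicate 1.

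Of 13 tested interferon-stimulated genes 9 were called higher and 0 lower (median 0.76), beside 9.37% and 8.42% of all tested genes. Counted by unadjusted edgeR p-values under 0.05 there were 10 higher and 0 lower, and DESeq2 and limma-voom called 0 lower. The list holds 22 genes, 2 of them with no read in any library, and those not tested had too few reads. A gene that is scarce in 1 group can pass that filter through the other, so the share among tested genes is not that of the whole list. GBP2, an interferon-induced GTPase, gave 0.309, 0.236 and 0.750 CPM in SH_ctrl and 1.68, 1.598 and 2.61 CPM in SH_tau (log2 fold change 2.22, adjusted p = 0.0139). IFI6, an interferon-induced membrane protein, gave 5.94, 5.38 and 7.02 CPM against 11.8, 12.5 and 12.9 CPM (log2 fold change 1.02, adjusted p = 0.0120). IFI6 was the list member still called without SH_ctrl replicate 1 (0.996, adjusted p = 0.0961), and 3 to 5 were called without SH_ctrl replicate 2, SH_tau replicate 2 or SH_tau replicate 3. Scaled to total counts 4 were called, and with the GC trend removed 6. Of 9 tested interferon receptors, kinases and inhibitors 1 was called, SOCS3, a feedback inhibitor of JAK signalling (log2 fold change 0.74, adjusted p = 0.0855), and that call was lost without any library other than SH_ctrl replicate 3, with the GC trend removed (0.47, adjusted p = 0.258) and under the mitochondrial covariate (0.25, 0.589). JAK1, a kinase of the interferon receptors, had a log2 fold change of 0.35 (adjusted p = 0.196) and IFNGR1 of -0.28 (adjusted p = 0.300).

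Among other class I and class I-like genes 1 of 7 tested was called, PROCR, the endothelial protein C receptor with a class I fold (log2 fold change 1.299, adjusted p = 0.0948, groups overlapping), and this call was lost without any library other than SH_ctrl replicate 3, with the GC trend removed (adjusted p = 0.146) and under the mitochondrial covariate (0.495, adjusted p = 0.610). FCGRT, the heavy chain of the neonatal Fc receptor, which also pairs with B2M, had a log2 fold change of 0.26 (adjusted p = 0.364) and HLA-G of -0.06 (adjusted p = 0.882). Class II genes were nearly silent, 6 of 13 with no read in any library. The 2 that were tested, both accessories rather than class II chains that reach the surface, were called higher, beside 9.37% of all tested genes. CTSS had 85 reads over the 6 libraries, at 0.189 to 0.247 CPM in SH_ctrl and 0.504 to 1.03 CPM in SH_tau. The filter on low counts may have kept CTSS only through the group where it is high. These were CTSS, the protease cathepsin S (log2 fold change 1.87, adjusted p = 0.0217), and HLA-DMA, a chain of the class II peptide editor (log2 fold change 1.47, adjusted p = 0.0207). Neither was called without SH_ctrl replicate 1 (adjusted p = 0.112 and 0.105), and CTSS was not called with the mitochondrial share as a covariate (1.35, 0.178). Of 12 genes known to regulate class I at the surface 2 were called lower and 0 higher (median -0.34), with 1 higher at an unadjusted p under 0.05 in edgeR, 1 higher by DESeq2 and 0 by limma-voom. SPPL2A, an intramembrane protease, fell by 0.82 on the log2 scale (adjusted p = 0.0262) and B3GNT2, a glycosyltransferase, fell by 0.60 (adjusted p = 0.0727). Neither was called without SH_ctrl replicate 1 (adjusted p = 0.132 and 0.243), and 1 list member was called lower without SH_ctrl replicate 2, SH_tau replicate 2 or SH_tau replicate 3. With the GC trend removed SPPL2A was at -0.49 (adjusted p = 0.0849) and B3GNT2 at -0.39 (0.175), and under the mitochondrial covariate they were at -0.74 (0.106) and -0.62 (0.166), not called in either case.

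**Figure D4:**
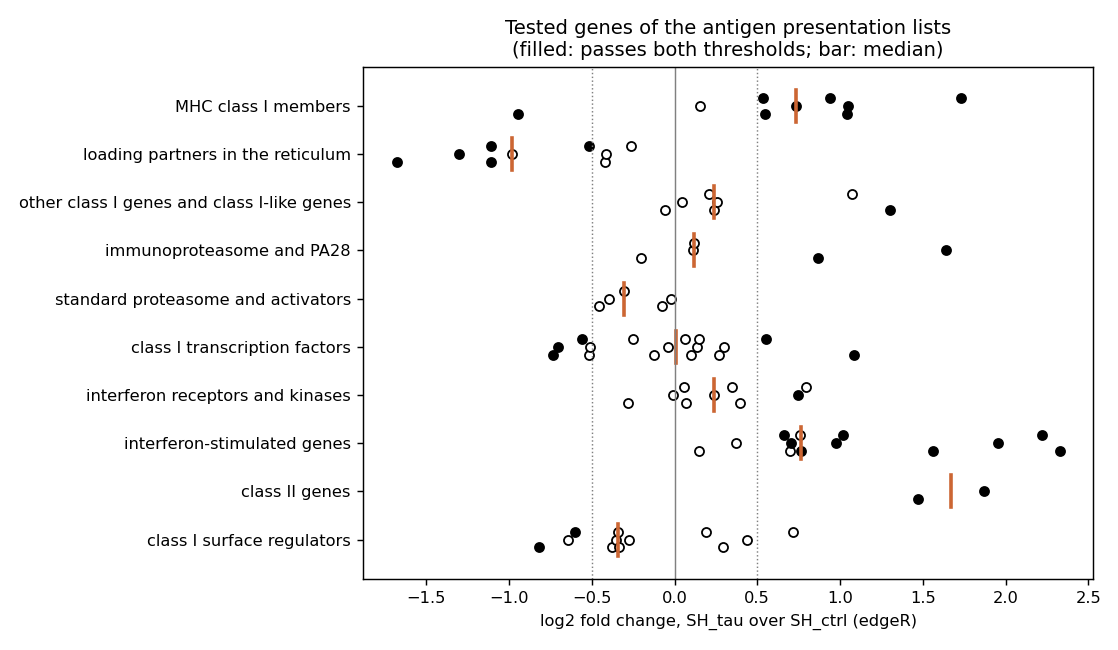
Log2 fold change of SH_tau over SH_ctrl (edgeR) for each tested gene of the 9 MHC class I genes and of the 9 related lists; filled points pass both thresholds and bars are medians. Medians are 0.73 for the members, 0.76 for interferon-stimulated genes and -0.98 for loading partners in the endoplasmic reticulum.

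Most genes that neighbour the members in the MHC were not called. Between HLA-F and TAPBP (chr6:29722775-33314284) 106 genes were tested, of which 7 were members. Of the other 99 genes, 9 were called higher (9.09%) and 3 lower (3.03%), beside 9.37% higher and 8.42% lower of all tested genes, with a median log2 fold change of 0.07. These other genes had a median GC content of 56.0%, against 47.9% over all tested genes with a value. PSMB8, PSMB9 and HLA-DMA, described above, were 3 of the 9.

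Profiles most like those of 2 members were looked up among 13016 protein-coding genes, as the mean absolute difference of centred log2 CPM over the 6 libraries. Among the nearest to HLA-B were SOHLH1 (0.140) and ODF3L1 (0.213), with log2 fold changes of 1.64 and 1.83 and overlapping groups as in HLA-B. Nearest to TAP1 were PRSS27 (0.0670), PREX1 (0.0696) and HSPA2 (0.0705), with log2 fold changes of 0.90, 1.15 and 0.91 and groups that did not overlap.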

How the data were processed

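RNA-seq was measured in 6 SH-SY5Y libraries, 3 per label. Per the labels and the study's methods, the authors converted 51-cycle single-end runs with bcl2fastq 1.8.4, aligned the reads to GRCh38 with TopHat2 2.1.0, keeping 1 alignment per read, and made the deposited read counts with featureCounts 1.5.0. The strand setting is not given in the sources used here, and the labels and methods name different library kits. The authors made the deposited RPM values by dividing counts by library totals, and the deposited RPKM values by dividing further by gene length.

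Counts were tested in R 4.3.3 with edgeR 4.0.16 (quasi-likelihood F test, TMM scaling, filterByExpr, label alone) and p-values adjusted by Benjamini-Hochberg across the 16778 genes tested. The adjusted p-values in the text are from edgeR unless another tool is named. Alternatives numbered 21: DESeq2 1.42.0, limma 3.58.1 (voom, and RPM with pseudocounts 0.5 and 0.1), other scalings and filters, a false discovery rate of 0.05, a factor for the replicate number, the GC trend removed by a lowess offset (span 0.3) alone and with that factor, the mitochondrial share as covariate, symbols summed, and each library left out. Counting error limits precision for members with few reads, and replicates differed by more than counting noise would give (chi-square over its degrees of freedom, 14.3 to 170 per pair). Positions and GC content come from GENCODE 44, upstream sequences from RefSeq (GRCh38.p14). Members and lists were chosen with earlier results of these data known. Genes named are the members, MAPT, for each list up to 2 called genes in each direction by p (with the 2 with most reads where fewer than 2 were called), and the 3 genes nearest in profile to HLA-B and to TAP1. Some genes that this rule picks are not reported here.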

Additional observations from a re-analysis of the deposited data

How the results depend on the processing

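Of the 9 members, 8 kept their direction in every alternative in which they were tested, and HLA-F did not. Its log2 fold change was -0.081 and -0.19 with limma on RPM (pseudocounts 0.5 and 0.1), -0.12 scaled to total counts, -0.047 with the GC trend removed, -0.12 with the GC trend removed and a replicate block, -0.16 without SH_ctrl replicate 2 and -0.27 without SH_tau replicate 1, with -0.27 to 0.40 over all libraries left out in turn. Members called higher, 7 as reported, numbered 1 with limma on RPM at either pseudocount and 1 scaled to total counts, 3 at a false discovery rate of 0.05 and 3 with mitochondrial share as covariate. The member called lower became 0 at a false discovery rate of 0.05, with the GC trend removed (with or without the block) and under the mitochondrial covariate. Leaving out 1 library gave 0 to 7 higher and 0 to 1 lower calls among members, and 1 to 19 higher and 1 to 15 lower among the 78 tested list genes, which had 17 and 10. List genes called higher and lower numbered 6 and 16 with limma on RPM (pseudocount 0.5), 6 and 17 (pseudocount 0.1), 7 and 18 scaled to total counts, 7 and 6 at a false discovery rate of 0.05, 11 and 5 with the GC trend removed, 6 and 2 with that trend removed and a replicate block, and 6 and 2 under the mitochondrial covariate. The median of all genes was -0.03 in the reported test, -0.36 scaled to total counts and -0.31 and -0.35 with limma on RPM, and the split of all calls was 1572 higher and 1413 lower, 559 and 2886, 572 and 2693, and 586 and 2779. Over all tested genes, 899 were called higher and 716 lower at a false discovery rate of 0.05, and 721 and 601 under the mitochondrial covariate. With the GC trend removed these were 1097 and 688, and with the replicate block as well 434 and 178. Calls over all genes thus fell in these settings too. The heavy chain sum was 0.61 (adjusted p = 0.136) and 0.62 (0.134) with limma on RPM and 0.64 (0.125) scaled to total counts, and passed in 18 of 21 alternatives. Libraries with the same replicate number deviated from their group means with correlations of -0.15, -0.46 and 0.17. The highest correlation between different numbers was 0.44, for SH_ctrl replicate 2 and SH_tau replicate 1. With 3 libraries per group these values cannot tell whether libraries of the same number were made in parallel. With the replicate block 4 members were called higher and 1 lower (2211 genes in all, against 2985), B2M, TAP2 and TAPBP no longer passing (adjusted p = 0.158, 0.167 and 0.161), and with the GC trend removed as well 2 members were called higher and 612 genes in all. HLA-B and HLA-F were not tested with at least 10 counts in every library. The cause of these differences was not tested. Depth limits HLA-B, HLA-E and HLA-F most, at 6 to 74 reads per library.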
